A study of Mus musculus with 4 samples.

Results

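The genes described here are 43 autosomal developmental regulators of mouse, namely the homeobox and Pax genes that lie outside the Hox clusters and belong to 9 families. They were taken by symbol from a fixed list (8 Pax, 8 Lhx, 4 Nkx, 6 Dlx, 6 Irx, 2 Emx, 2 Meis and 2 Msx genes and 5 Six-family genes), and all 43 were found among the 20665 autosomal protein-coding genes of the RefSeq table. ChIP-exo, in which an exonuclease trims the immunoprecipitated fragments to the edge of the bound protein, was applied to the Bruce-4 line of mouse embryonic stem cells, which derives from C57BL/6J mice and was kept on gelatin in serum/2i/LIF medium. The 4 libraries, each from 10000000 cells, used an antibody to H3K4me3 (1 library), to the DNA-binding zinc finger protein CTCF (2 libraries) or to the cohesin subunit RAD21 (1 library). The 3 deposited lists held 21006, 50546 and 74004 autosomal peaks for H3K4me3, CTCF and RAD21, and the CTCF list was a single union. No condition was varied and each antibody had 1 list, so the values below are counts and lengths in 1 cell line, without replicate error, and no test between genes was made.

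A homeobox encodes the homeodomain, a DNA-binding fold of transcription factors, and the genes of these families place organs and neurons along the axes of the embryo. Among the Pax proteins, which share a paired domain, Pax1 and Pax9 have no homeodomain, and Pax2, Pax5 and Pax8 keep only part of one. Most of these genes are silent in embryonic stem cells, where their CpG-rich promoters are known to carry H3K4me3 together with the Polycomb mark H3K27me3. H3K4me3 is laid down around starts of active and poised genes, CTCF binds DNA and stops loop-extruding cohesin, and RAD21 is part of the cohesin ring. H3K27me3 and transcripts were not measured, so a peak below shows the mark and not transcription.

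Stem cell markers carried the mark in this cell line. All 12 of the markers chosen (Nanog, Pou5f1 and Sox2 among them) had H3K4me3 at an end or in the body, and 10 of the 12 had a peak above the median length of the list, 683 bp. For 8 fibroblast markers these counts were 4 and 2, and for 6 neural progenitor markers they were 4 and 2. Over all autosomal protein-coding genes the shares were 65.8% and 49.4%. Sequencing depth and peak height were unknown.

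The sequences below show how 7 of the listed starts look, and the letters come from RefSeq (build GRCm38.p6, the assembly that mm10 names). The promoter table held 42 windows of 300 bases, each 250 before and 50 after a start, for 34 of the 43 members. The other 9 (Dlx3, Dlx4, Dlx5, Dlx6, Irx1, Irx5, Irx6, Lhx5 and Pax4) are used by their gene coordinates alone. The first set holds the 3 windows that a RAD21 peak overlapped. None of them held CTCF, which was also absent from the rest of the 42. In each of the 3 the RAD21 peak lay upstream of the start, as do 250 of the 300 bases of a window. Capitals mark the bases inside the RAD21 peak, 95 in Six6 (chr12:72939632-72939931, + strand), 71 in Pax2 (chr19:44746351-44746650, + strand) and 76 in Lhx3 (chr2:26208200-26208499, - strand).
Six6: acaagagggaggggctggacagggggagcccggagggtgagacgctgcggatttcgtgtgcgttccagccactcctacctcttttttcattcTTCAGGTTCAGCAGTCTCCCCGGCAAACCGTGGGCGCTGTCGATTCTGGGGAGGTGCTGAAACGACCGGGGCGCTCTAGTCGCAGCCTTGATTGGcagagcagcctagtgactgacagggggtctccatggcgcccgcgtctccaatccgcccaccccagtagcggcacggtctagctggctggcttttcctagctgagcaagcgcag
Pax2: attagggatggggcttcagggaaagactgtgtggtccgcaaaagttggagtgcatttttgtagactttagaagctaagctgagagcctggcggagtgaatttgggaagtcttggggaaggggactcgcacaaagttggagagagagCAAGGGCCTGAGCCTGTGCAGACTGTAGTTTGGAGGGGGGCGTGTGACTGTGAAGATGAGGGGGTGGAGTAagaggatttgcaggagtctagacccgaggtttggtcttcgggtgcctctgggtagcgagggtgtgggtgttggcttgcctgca
Lhx3: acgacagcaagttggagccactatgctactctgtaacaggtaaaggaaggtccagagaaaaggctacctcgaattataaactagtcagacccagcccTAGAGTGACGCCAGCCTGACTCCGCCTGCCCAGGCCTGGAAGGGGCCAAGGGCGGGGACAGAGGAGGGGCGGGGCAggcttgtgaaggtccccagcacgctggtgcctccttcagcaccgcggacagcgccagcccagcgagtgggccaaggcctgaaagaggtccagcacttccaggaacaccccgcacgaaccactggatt

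The second set puts windows rich and poor in CpG beside their H3K4me3, and both sets were chosen after the values were seen. Capitals mark each CpG, of which there were 26 in Emx2 (chr19:59458440-59458739, + strand), 40 in Nkx6-1 (chr5:101664662-101664961, - strand), 29 in Msx1 (chr5:37824536-37824835, - strand) and 4 in Lhx8 (chr3:154330511-154330810, - strand).
Emx2: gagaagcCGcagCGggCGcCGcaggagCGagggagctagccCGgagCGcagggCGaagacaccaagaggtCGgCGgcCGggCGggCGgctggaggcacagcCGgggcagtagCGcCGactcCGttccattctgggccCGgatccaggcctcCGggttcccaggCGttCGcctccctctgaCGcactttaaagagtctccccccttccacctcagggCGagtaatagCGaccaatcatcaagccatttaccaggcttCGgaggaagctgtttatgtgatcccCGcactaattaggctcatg
Nkx6-1: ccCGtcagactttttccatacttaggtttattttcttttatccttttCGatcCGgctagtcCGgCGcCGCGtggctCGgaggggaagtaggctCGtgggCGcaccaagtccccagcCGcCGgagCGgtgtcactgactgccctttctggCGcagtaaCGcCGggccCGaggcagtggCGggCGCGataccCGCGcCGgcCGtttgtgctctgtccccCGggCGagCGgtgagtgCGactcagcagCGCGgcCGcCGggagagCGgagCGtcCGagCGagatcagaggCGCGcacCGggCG
Msx1: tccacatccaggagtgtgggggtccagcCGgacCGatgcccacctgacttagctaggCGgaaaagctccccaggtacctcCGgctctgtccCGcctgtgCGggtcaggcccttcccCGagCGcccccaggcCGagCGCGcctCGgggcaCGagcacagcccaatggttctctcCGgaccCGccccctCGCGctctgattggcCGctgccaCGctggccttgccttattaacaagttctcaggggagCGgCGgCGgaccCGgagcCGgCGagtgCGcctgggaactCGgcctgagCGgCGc
Lhx8: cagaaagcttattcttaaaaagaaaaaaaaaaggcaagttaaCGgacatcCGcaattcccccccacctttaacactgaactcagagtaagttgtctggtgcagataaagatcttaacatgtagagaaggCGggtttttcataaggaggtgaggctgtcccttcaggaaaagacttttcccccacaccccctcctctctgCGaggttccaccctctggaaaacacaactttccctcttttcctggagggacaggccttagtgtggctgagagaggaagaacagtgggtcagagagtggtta

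Nkx6-1, which specifies motor neurons and pancreatic beta cells, had a 1321 bp H3K4me3 peak over its start. Msx1, a regulator of tooth and palate growth, had 1 of 894 bp reaching into its window. Emx2, which patterns the cerebral cortex and the urogenital tract, had none in the gene or within 20 kb, and its window was CpG-rich. Lhx8, needed for cholinergic forebrain neurons, had a 342 bp peak 257 bp inside the gene, and its window was the poorest in CpG of all 42. Over the member windows the median was 17 CpG and 61% GC, and over all 20085 windows of autosomal protein-coding genes it was 14 CpG and 57% GC. No CTCF peak overlapped any of the 42.

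H3K4me3 was found at nearly all of these genes, in most cases as a single peak. The median, unmarked genes included, was 1 peak per gene both in members and in all autosomal protein-coding genes. At least 1 peak lay within 1 kb of an annotated gene end or in the gene body of 39 of the 43 members, or 90.7% (Wilson 95% interval 78.4 to 96.3%, counting error only), and 65.8% of all autosomal protein-coding genes had one. The 4 without were Pax4, Lhx3, Dlx4 and Emx2. Exactly 1 peak was present at 27 members, above the list's median of 683 bp in 15 of them and at or below it in 12, and 2 or more were present at 12, or 27.9%, where the share of all genes was 21%. The 57 member peaks had a median of 502 bp (range 294 to 1789 bp), against 748 bp for the 17106 peaks at ends or in bodies of all autosomal protein-coding genes. When only peaks above 683 bp were counted, 19 members had one (44.2%, interval 30.4 to 58.9%) and so did 49.4% of all genes, so the order of the 2 shares turned with peak length. Members were also shorter genes, with a median of 9572 bp against 17491 bp.

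**Figure D1:**
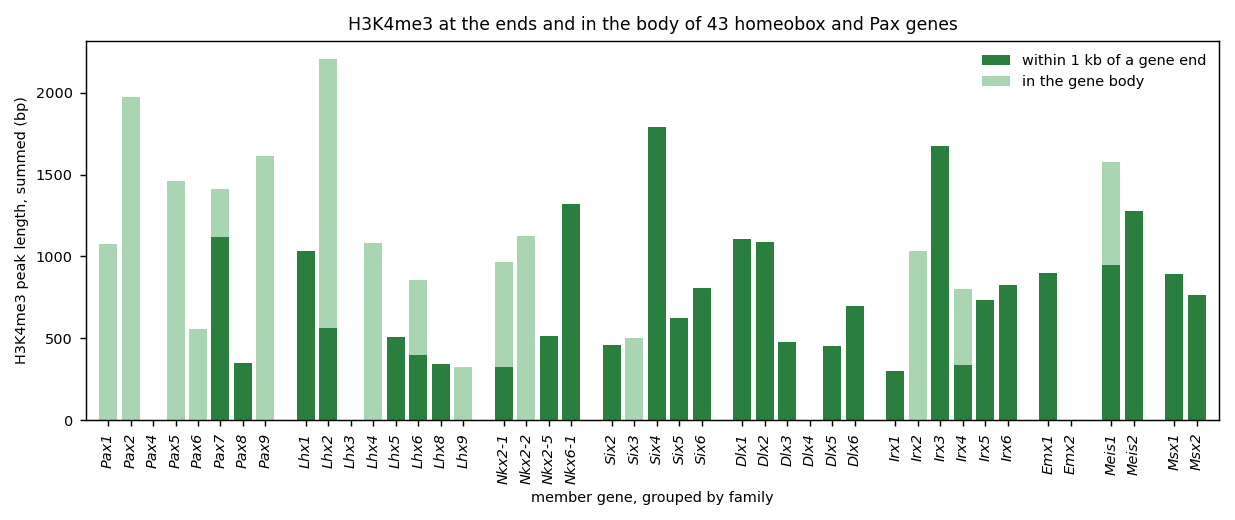
Summed length of the H3K4me3 peaks (bp, vertical axis) at each of the 43 members (horizontal axis, by family), in dark green for peaks within 1 kb of a gene end and in light green for peaks in the gene body. Lhx2 reaches 2209 bp, Pax2 and Six4 follow at 1974 and 1789 bp, and Pax4, Lhx3, Dlx4 and Emx2 have no bar.

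Near the gene ends alone the members were closer to other genes. H3K4me3 lay within 1 kb of an end of 29 members (67.4%, interval 52.5 to 79.5%), where 58% of all genes had it, and with a 500 bp window the shares were 53.5% of members and 54.7% of all genes. With the gene body included, the shares were 90.7% of members and 65.8% of all genes. The remaining 10 marked members had it only inside the gene: Pax1, Pax2, Pax5, Pax6, Pax9, Lhx4, Lhx9, Nkx2-2, Six3 and Irx2. In 7 of these 10 every listed start itself lay more than 1 kb from the outermost annotated end, and in 6 of the 10 (Pax1, Pax2, Pax9, Lhx4, Lhx9 and Irx2) a peak lay within 1 kb of a listed start. With starts in place of ends, 25 of 34 members were marked (73.5%, interval 56.9 to 85.4%), where 60.3% of all genes in the promoter table were. The 9 without H3K4me3 at a listed start were Pax5, Pax6, Lhx3, Nkx2-2, Nkx2-5, Six3, Six6, Emx2 and Meis2, and 7 of these had a peak elsewhere at an end or in the body. At Six6, a regulator of retina and pituitary, the only peak in the gene or within 20 kb (805 bp) lay 598 bp past the far end of the gene, with its midpoint 6017 bp downstream of the start shown above. At Nkx2-5, a regulator of heart formation, the only peak at an end or in the body (511 bp) likewise lay near the far end, with its midpoint 1908 bp downstream of the start. A longer peak of 1190 bp lay in the upstream flank, 4866 bp from the gene. Of 49 peaks at members with a listed start, 37 had their midpoint downstream of the nearest start (75.5%), a share close to the 75.7% over all genes.

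The Pax genes were the family with most marking inside the gene. H3K4me3 was at an end or in the body of 7 of 8, but at an end of only 2, Pax7 and Pax8. The Pax genes were also long, with a median of 42282 bp against 9572 bp over all members. The part of gene length in this marking was not tested. Pax2, which acts in kidney and eye, had 3 peaks of 446, 314 and 1214 bp, a sum of 1974 bp and the longest in the family. The first and second had their midpoints 448 and 399 bp downstream of 2 inner starts, and the third lay 1531 bp inside the far end. Pax9, needed for teeth and palate, had a single peak of 1615 bp that began 3859 bp inside the gene, just downstream of its listed start. Pax1, which acts in the vertebral column, had 1 of 1079 bp placed likewise, with its midpoint 713 bp downstream of the listed start. Pax7, a factor of muscle stem cells, had 1117 bp over its start and a peak of 294 bp in the body. Pax8, a thyroid regulator, was the least marked of the 7, with 351 bp. Pax5, which commits cells to the B lineage, had 3 peaks of 564, 497 and 401 bp spread over a gene of 185947 bp, the nearest of them 6337 bp from its start. Pax6, a master regulator of the eye, had a single 557 bp peak between its 2 listed starts. Pax4, a factor of pancreatic beta cells, had none in the gene. The only H3K4me3 peak within 20 kb of Pax4, of 548 bp, lay at Arf5.

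The Lhx genes, which encode LIM homeodomain proteins, ranged from the widest marking of all members to none. Lhx2, needed for eye and forebrain, had 3 peaks of 561, 868 and 780 bp, one at each of its 2 listed starts and one in the body. Lhx1, a factor of head formation, had 1033 bp over its start, and Lhx4, a pituitary factor, had 766 and 319 bp on either side of its start. Lhx6, which acts in cortical interneurons, had 397 bp at a listed start and 459 bp in the body. Lhx5, Lhx8 and Lhx9 (a gonad factor) had 1 peak each, of 506, 342 and 326 bp. Lhx3, a factor of pituitary and motor neurons, had no H3K4me3 in the gene or within 20 kb, and of the 3 lists only RAD21 had a peak in the window around 1 of its 2 listed starts.

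All 4 Nkx genes and all 5 Six-family genes were marked. Nkx6-1 had the widest marking of the Nkx genes, 1321 bp, and Nkx2-5 the narrowest, 511 bp. Nkx2-2, a factor of the ventral neural tube, had 3 peaks of 294, 371 and 463 bp, all in the body. Nkx2-1, a lung and thyroid regulator, had 640 bp in the body and 325 bp near its start. Among the Six-family genes, each of which had exactly 1 peak, Six4, a muscle regulator, had 1789 bp (chr12:73111551-73113339), the longest single peak of any member. That peak also lay inside or within 1 kb of another gene, Mnat1. Six2, which maintains nephron progenitors, had the shortest of the family, 458 bp. Six3, a forebrain and eye regulator, had 502 bp in the body, and Six5 had 624 bp over its start.

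The Dlx, Irx, Emx, Meis and Msx genes were marked in the same way, mostly by 1 peak near an end. Dlx1 and Dlx2, which act in forebrain interneurons, had peaks of nearly equal length, 1107 and 1089 bp, and these were the longest in the Dlx family. Dlx5 had 454 bp, Dlx3 475 bp, Dlx6 696 bp and Dlx4 none. All 6 Irx genes, of the Iroquois family, were marked, from 300 bp at Irx1 to 1677 bp at Irx3 (chr8:91800316-91801992). Irx2, Irx4 and Irx6 each had 2 short peaks on either side of a start or gene end. Emx1 had a peak of 902 bp over its start. The Meis genes encode partners of Hox proteins, and with Pax5 they are the 3 longest members. Meis1 had 4 peaks of 294 to 481 bp, from 11383 bp inside its higher-coordinate end to 921 bp beyond it, and Meis2 had 1278 bp that ended 115 bp inside its higher-coordinate end, upstream of its listed start. Msx1 and Msx2 had 894 and 764 bp, in each case at the start.

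Long H3K4me3 peaks were few. The longest 10% of autosomal H3K4me3 peaks were those above 1306.5 bp, and 4 members had such a peak at an end or in the body: Six4 (1789 bp), Irx3 (1677 bp), Pax9 (1615 bp) and Nkx6-1 (1321 bp). That is 9.30% (interval 3.68 to 21.6%), and 12% of all genes had one. Meis2, at 1278 bp, lay just under the threshold. Among the stem cell markers, 8 of 12 had such a peak, with 2792 bp at Nanog.

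In the 20 kb on either side, 23 members had a further H3K4me3 peak (53.5%, where 47.5% of all genes did). These were 28 distinct peaks. Of them 5 belonged to another member, 10 lay within 1 kb of some other annotated gene or inside it, and 13 lay more than 1 kb from any annotated gene. The 13 ranged from 294 to 941 bp, the longest lying 7005 bp beyond the higher-coordinate end of Meis1. One of 382 bp beside Pax9 and one of 398 bp between Six3 and Six2 were among those that overlapped both a CTCF and a RAD21 peak.

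Of the 120 distinct CTCF peaks in or within 20 kb of members, 43 were at ends or in bodies. The flanks searched, up to 20 kb on either side, were longer than the median member (9572 bp). The part of searched length in this split was not tested. CTCF was within 1 kb of an end of 11 members (25.6%, interval 14.9 to 40.2%), and 27.2% of all genes had it there. With listed starts it was within 1 kb at 3 of 34 members (8.82%, interval 3.05 to 23.0%), where 22.1% of genes in the promoter table had it. RAD21 was at an end of 14 members (32.6%, interval 20.5 to 47.5%), where 39.4% of all genes had it, and at a listed start of 7 of 34 (20.6%, where 35.1% had it). At an end or in the body RAD21 was present at 24 members (55.8%, interval 41.1 to 69.6%, where 66.9% of all genes had it) and CTCF at 23 (53.5%, where 57.4% of all genes had it). Members were shorter genes than all genes, and the part of gene length in these shares was not tested. H3K4me3 and CTCF were both at an end of 9 members (20.9%, where 22% of all genes had both). This count does not require the same end, and at Lhx5, Irx3, Irx4 and Irx5 they lay at opposite ends. The member share was below that of all genes in each of the 4 comparisons at ends and starts, and each interval (10.3 to 36.8% for RAD21 at starts) includes the value for all genes. With a 2.5 kb window the order at ends turned, with CTCF at 48.8% of members and 42.3% of all genes and RAD21 at 58.1% of members and 55% of all genes.

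**Figure D2:**
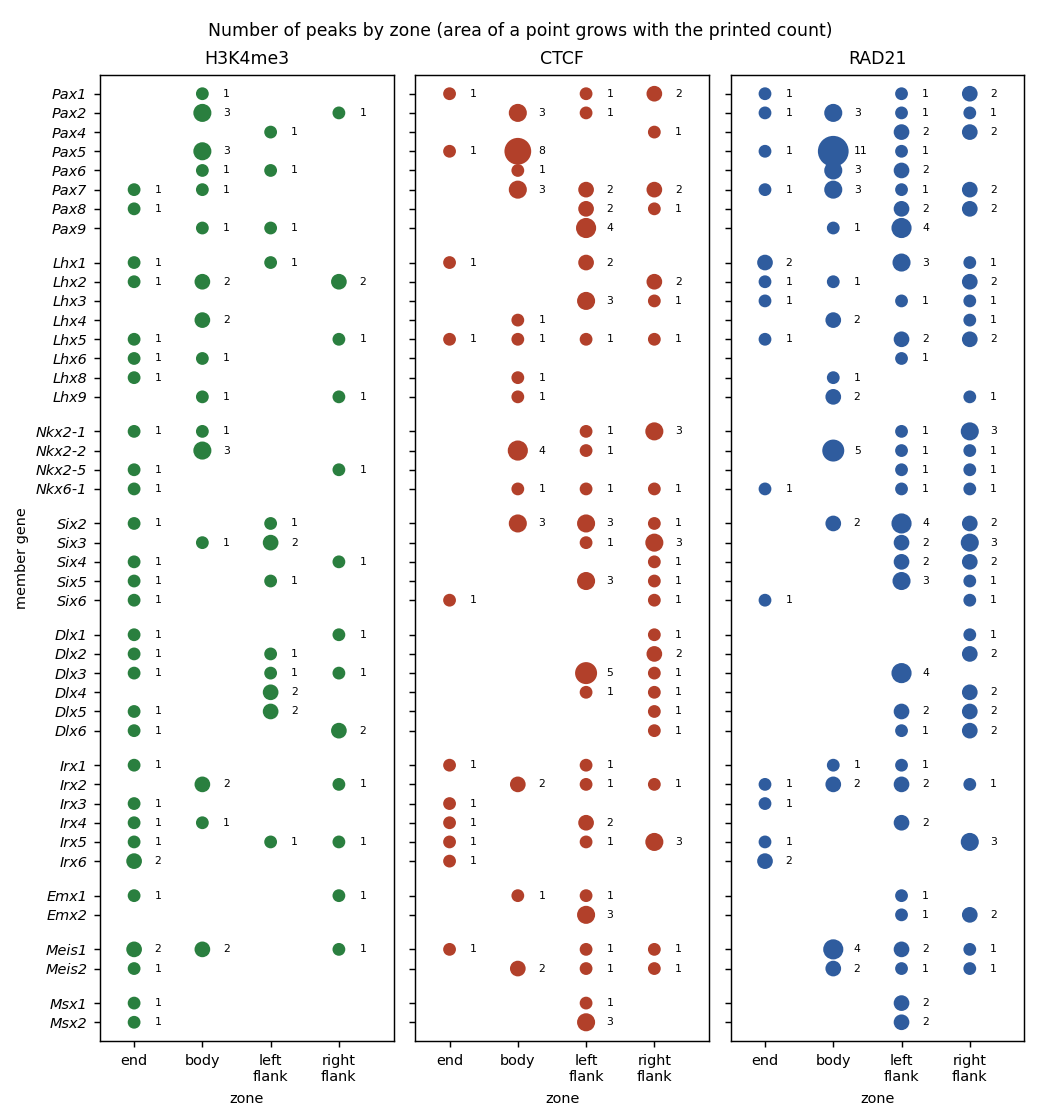
Number of H3K4me3, CTCF and RAD21 peaks (panels; the printed number is the count, and no point means 0) within 1 kb of a gene end, in the body, and from 1 to 20 kb beyond the lower and the higher coordinate end (left and right flank) of each member. Pax5 has the most body peaks, 8 CTCF and 11 RAD21, and 5 of the 6 Irx genes have a CTCF peak at an end.

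The 11 members with CTCF at an end included 5 of the 6 Irx genes. At Irx1, Irx4 and Irx5 it lay 696, 720 and 659 bp from the end, outside a 500 bp window. The Irx genes with a listed start (Irx2, Irx3 and Irx4) had no CTCF within 1 kb of it. At Irx3 a 498 bp CTCF peak (chr8:91797618-91798115, mm10) lay 396 bp beyond the far end of the gene, with a 443 bp RAD21 peak in the same place. At Irx6 a CTCF peak of 597 bp (chr8:92673358-92673954), the longest in or within 20 kb of any member, lay 335 bp from 1 end, overlapped a 470 bp H3K4me3 peak and held a RAD21 peak of 387 bp. Irx5 had CTCF of 73 bp at 1 end with RAD21 of 129 bp, and a further 210 bp CTCF peak 1116 bp beyond the opposite end that overlapped its H3K4me3 peak. Irx1 and Irx4 had CTCF of 165 and 87 bp at an end without RAD21 there. The sixth, Irx2, had 2 CTCF peaks in the body. The other members with CTCF at an end were Pax1, Pax5, Lhx1, Lhx5, Six6 and Meis1. Lhx1 had a 43 bp CTCF peak inside its H3K4me3 peak, 445 bp upstream of the gene, and Pax5 had 86 bp of CTCF 536 bp upstream. No Nkx, Dlx, Emx or Msx gene had CTCF at an end.

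CTCF and RAD21 coincided at some ends and not at others. Of the 8 members with both at an end, 6 had overlapping peaks (Pax1, Lhx1, Lhx5, Irx3, Irx5 and Irx6), while in Pax5 and Six6 they lay at opposite ends. CTCF alone was at ends of Irx1, Irx4 and Meis1. With or without the other, CTCF was at an end of 25.6% of members and 27.2% of all genes, and RAD21 of 32.6% and 39.4%. Both at an end, overlapping peaks and CTCF alone were not counted over all genes. RAD21 without CTCF at any end was found at 6 members: Pax2, Pax7, Lhx2, Lhx3, Nkx6-1 and Irx2 (14%, where 16.5% of all genes had this). These RAD21 peaks were short, at 71 bp for Pax2, Pax7 and Nkx6-1, 76 bp for Lhx3 and 78 bp for Irx2, except at Lhx2, where the peak was 226 bp. The shortest length in the RAD21 list was 71 bp. At Pax9 the RAD21 peak inside its H3K4me3 peak was 71 bp as well.

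Inside the genes, more than 1 kb from both ends, 14 members had CTCF (32.6%, where 44.3% of all genes had it). Members were shorter genes (median 9572 bp against 17491 bp), and the part of gene length in this share was not tested. Pax5 had 8 CTCF peaks in its body, 7 of which overlapped RAD21. One of these, of 236 bp, overlapped an H3K4me3 peak and lay 145815 bp from the end that holds the start. Nkx2-2 had 4 CTCF peaks in 18950 bp, each overlapped by RAD21, and the longest of them (523 bp) overlapped an H3K4me3 peak of 294 bp. The density was 2.11 CTCF peaks per 10 kb of gene in Nkx2-2 and 0.43 in Pax5. It was 2.05 in Irx2, 1.81 in Nkx6-1, 1.18 in Six2 and 1.04 in Lhx5, which had 1 to 3 such peaks each, and below 1 in the other members. Meis2, the longest member at 206274 bp, had 2 CTCF peaks in its body, both 39 bp long and both without RAD21, while Meis1 had none there. Pax4, Pax8, Lhx6, Nkx2-1, Nkx2-5, Six3, Six4, Six5, Emx2 and all Dlx and Msx genes had neither CTCF nor RAD21 at their ends or in the body.

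The 120 distinct CTCF peaks in or within 20 kb of members had a median length of 108 bp, and 95 of them overlapped RAD21 (79.2%, interval 71.1 to 85.5%), where 81.8% of all autosomal CTCF peaks did. For the 43 at ends or in bodies, a subset chosen after seeing the data, the share was 67.4% (interval 52.5 to 79.5%), and it was 79.3% of the 28911 CTCF peaks at ends or in bodies of all genes. Of 160 distinct RAD21 peaks in or near members 96 overlapped CTCF (60.0%, interval 52.3 to 67.3%), where 55.9% of all did. H3K4me3 peaks at member ends and bodies overlapped CTCF in 6 of 57 cases (10.5%, interval 4.91 to 21.1%, with 17.3% over all autosomal peaks). They overlapped RAD21 in 9 (15.8%, interval 8.54 to 27.4%, with 31.7% over all autosomal peaks). The 17.3% and 31.7% cover all 21006 autosomal H3K4me3 peaks, those away from genes included. Of these peaks 17106 lay at ends or in bodies of protein-coding genes, and no share for those alone is given. The member peaks were shorter than peaks in general, and the part of length in these shares was not tested.

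The flanks were then described for each gene. CTCF lay between 1 and 20 kb outside the gene on both sides of 16 members (37.2%, interval 24.4 to 52.1%, where 31.4% of all genes had this), on 1 side of 18 and on neither side of 9 (20.9%, interval 11.4 to 35.2%, where 30.7% of all genes had none). The 16 were Pax1, Pax7, Pax8, Lhx3, Lhx5, Nkx2-1, Nkx6-1, Six2, Six3, Six5, Dlx3, Dlx4, Irx2, Irx5, Meis1 and Meis2. The 9 were Pax5, Pax6, Lhx4, Lhx6, Lhx8, Lhx9, Nkx2-5, Irx3 and Irx6. Only Lhx6 and Nkx2-5 among the 43 had no CTCF at all in the gene or within 20 kb (4.65%, where 19.1% of all genes had none).

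From an annotated gene end outward, the nearest CTCF peak lay at a median of 12322.5 bp over the 86 member ends (95% interval of the median 6845 to 18217 bp). Over all autosomal protein-coding genes the median was 17628.5 bp. The distance passed 20 kb at 31 of the 86 ends (36.0%, against 46.8% over all genes) and 100 kb at 8 (9.30%, against 15.5%). The 8 include Dlx5 and Dlx6, whose distances on the lower-coordinate side run to the same CTCF peak. Neighbouring members can share a CTCF peak in this way, and the interval counts their ends as separate. By family the median was shortest for the Meis genes, 3348 bp over 4 ends, and the Irx genes, 3822.5 bp over 12. It was 8020.5 bp for the Six-family genes, 8403 bp for Nkx, 13133.5 bp for Pax, 14266 bp for Dlx, 20307.5 bp for Emx, 26240.5 bp for Lhx and 41845 bp for Msx. Families of 2 genes give 4 values only, and in the Pax family alone single ends ranged from 536 to 273372 bp.

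**Figure D3:**
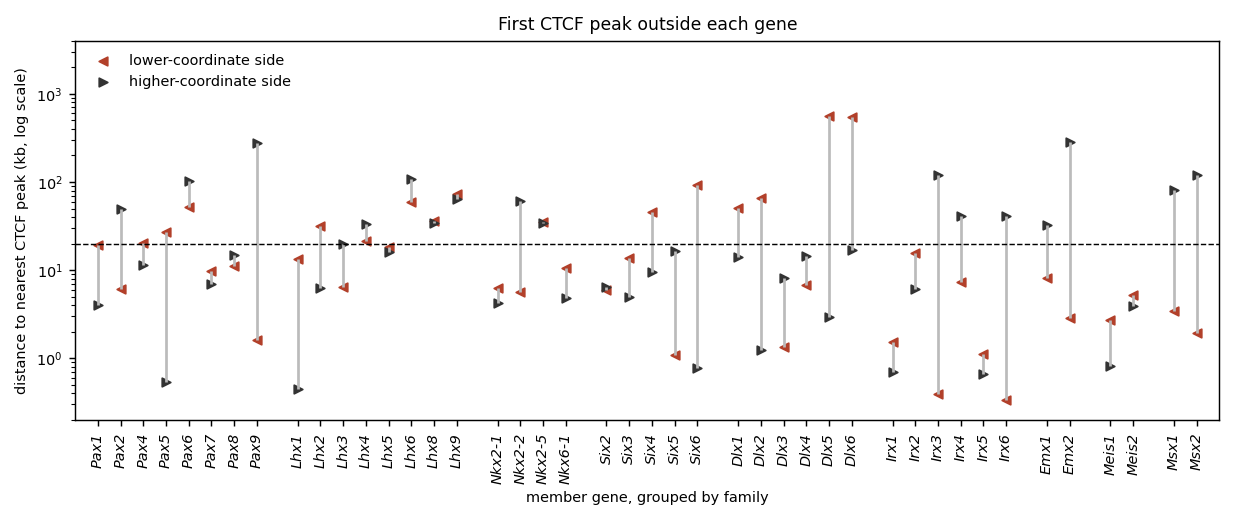
Distance (kb, log scale) from each end of a member outward to the first CTCF peak, on the lower-coordinate side (left-pointing, red) and the higher-coordinate side (right-pointing, black), with a dashed line at 20 kb. Lines join the 2 sides of a gene. Dlx5 and Dlx6 reach 562020 and 547553 bp on the lower-coordinate side, to the same CTCF peak, and Irx6 has the nearest peak, at 335 bp.

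Some members had CTCF close on 1 side and far away on the other. At Irx3 it was 396 bp away on 1 side and 120811 bp away on the other. At Emx2 the distances were 2847 and 282536 bp, at Pax9 they were 1619 and 273372 bp, and at Msx2 1935 and 120134 bp. Six6 had CTCF at 780 and 91810 bp, and Pax6 had it far away on both sides, at 52260 and 101632 bp. At Meis1 both sides were near, at 2724 and 819 bp, and at Six2 they were 6037 and 6412 bp.

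Some members lie beside each other, and 4 pairs were within 100 kb. Between Dlx1 and Dlx2, 9426 bp apart, there was no peak of any of the 3 lists. The first CTCF peak, of 88 bp, lay 1230 bp beyond Dlx2 and overlapped RAD21, and the next, of 307 bp, lay 9369 bp beyond it. Dlx6 and Dlx5, factors of jaw and limb, were 9830 bp apart with a 616 bp H3K4me3 peak and a 235 bp RAD21 peak but no CTCF between them. Beyond Dlx5 a 169 bp CTCF peak lay at 2944 bp, inside a 574 bp RAD21 peak. On the opposite side no CTCF was listed for 547553 bp from Dlx6.

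The other pairs had CTCF between the genes. Dlx3 and Dlx4, 15150 bp apart, had a 248 bp CTCF peak 8059 bp from Dlx3, which overlapped a 294 bp H3K4me3 peak and no RAD21. Outside Dlx3 a row of 5 CTCF peaks, at 1333 to 19500 bp, lay on the side away from Dlx4, and 4 of the 5 overlapped RAD21. Six3 and Six2 were 36544 bp apart with 5 CTCF peaks between them, all 5 overlapped by RAD21, at 13.7 per 100 kb where the autosomes as a whole had 2.11. Among the wider gaps, Nkx2-1 to Pax9 (154784 bp) held 10 CTCF and 12 RAD21 peaks, Six6 to Six4 (154709 bp) held 9 and 11, and Nkx2-2 to Pax1 (166495 bp) held 6 and 8. The first of these gaps also holds Nkx2-9. In the 2 Irx clusters CTCF was sparser in the gaps from Irx1 to Irx2, Irx2 to Irx4 and Irx3 to Irx5. These held 7 peaks in 660706 bp, 8 in 625392 bp and 8 in 556141 bp, or 1.06, 1.28 and 1.44 per 100 kb. Between Irx5 and Irx6 there were 11 CTCF peaks in 312832 bp, or 3.52 per 100 kb, above the 2.11 of the autosomes.

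**Figure D4:**
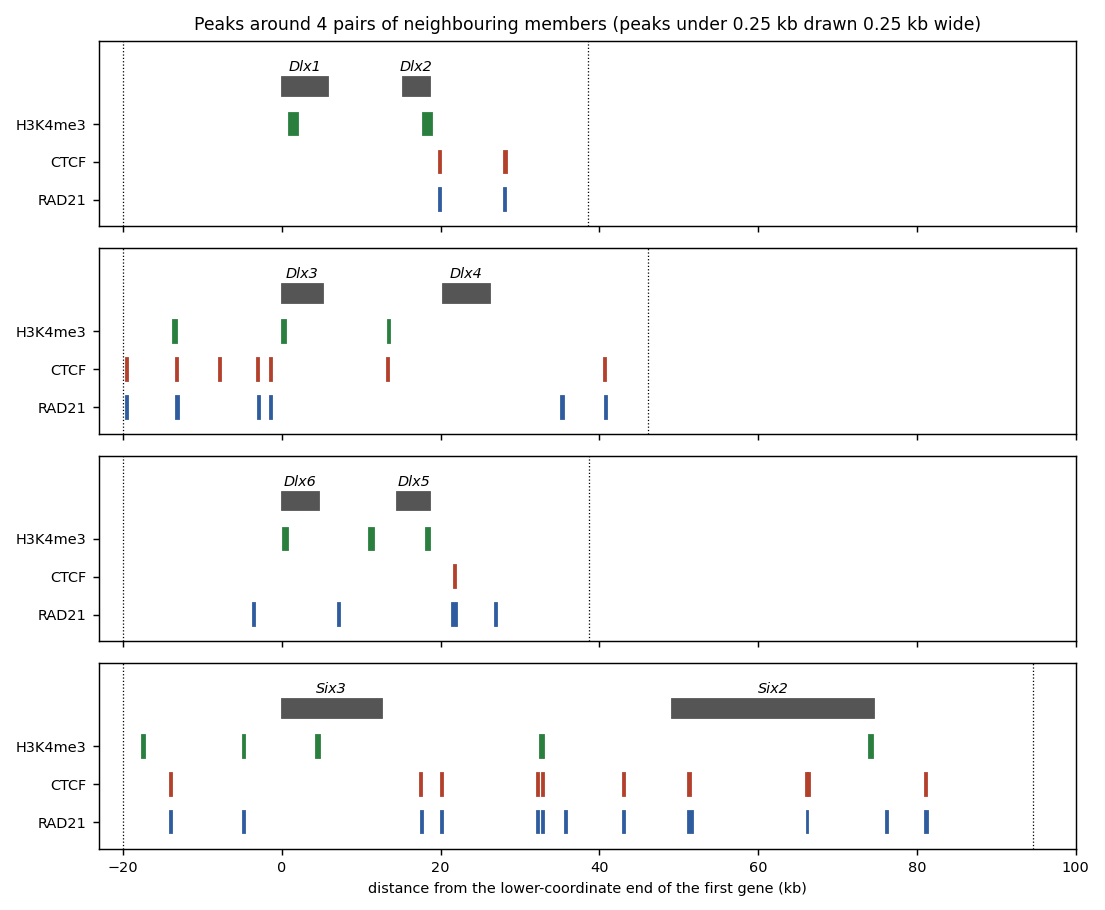
Peaks of H3K4me3 (green), CTCF (red) and RAD21 (blue) around the 4 pairs of members within 100 kb, by distance (kb) from the lower-coordinate end of the first gene, with the genes as grey bars and dotted lines at 20 kb outside the pair. No peak lies between Dlx1 and Dlx2, and 5 CTCF peaks lie between Six3 and Six2.

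Related lists were set beside the members. Of 88 other homeobox genes outside the Hox clusters 79 had H3K4me3 at an end or in the body (89.8%), as did 31 of 39 Hox genes (79.5%) and 38 of 41 forkhead genes (92.7%), against 90.7% of members. The members' interval, 78.4 to 96.3%, includes all 3 values. At a gene end alone H3K4me3 was at 67.4% of members, 76.1% of other homeobox genes, 64.1% of Hox genes and 87.8% of forkhead genes. Genes with 2 or more peaks made up 27.9% of members, 28.4% of other homeobox genes, 15.4% of Hox genes and 46.3% of forkhead genes. Over marked genes the median covered length was 894 bp in members (95% interval of the median 696 to 1089 bp), 883 bp in the other homeobox genes, 1103 bp in Hox genes, 1127 bp in forkhead genes and 1099 bp in all marked genes. CTCF was in both flanks of 37.2% of members, 33.0% of other homeobox genes, 59.0% of Hox genes and 43.9% of forkhead genes. Hox genes lie close together and share flanks, so their count repeats the same peaks. No test was made between the lists.

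**Figure D5:**
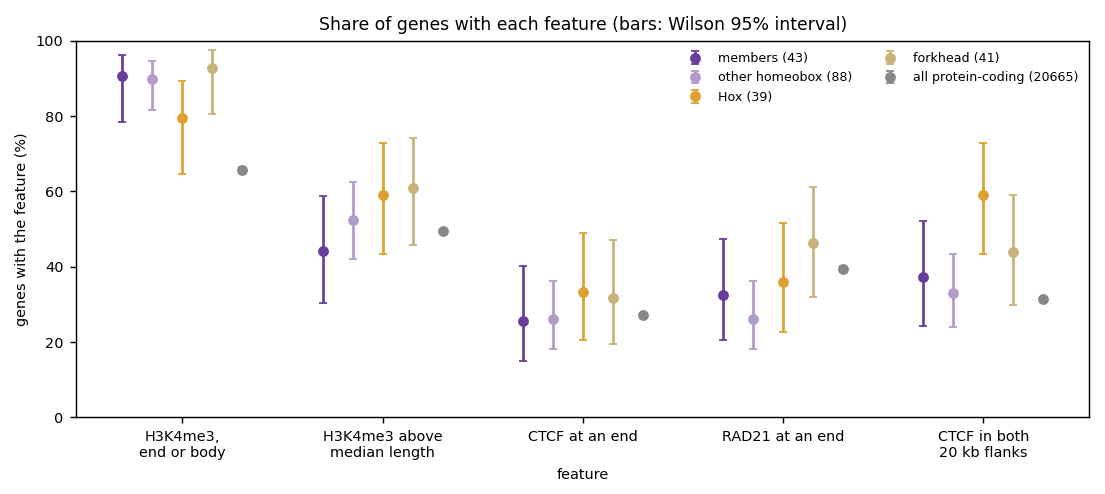
Share of genes (%, vertical axis) with each of 5 features (horizontal axis) for the 43 members, 88 other homeobox, 39 Hox, 41 forkhead and all 20665 autosomal protein-coding genes; bars are Wilson 95% intervals, which cover counting error only. For H3K4me3 at an end or in the body the members stand at 90.7% and all genes at 65.8%, and for peaks above the median length at 44.2% and 49.4%.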

How the data were processed

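Peak lists of H3K4me3, CTCF and RAD21 ChIP-exo from mouse embryonic stem cells were used as the authors deposited them, with coordinates and no other value; they hold no score, count or signal, so depth and peak height were unknown. Per the submitters' processing notes the genome was mm10 and the tools included MACS2, bedtools 2.30.0, Picard 2.27.4 and Bowtie2 2.4.5. For the role of each tool, the peak threshold, any control and the way the CTCF union was formed, the answer is not given in the sources used here, so the CTCF list counts as 1.

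Genes came from the RefSeq table of GRCm38.p6 (20665 autosomal protein-coding genes on 19 autosomes). A peak was at an end when it came within 1 kb of an annotated gene end, in the body when it overlapped the gene further inside, and in a flank when it lay up to 20 kb outside. Overlap meant at least 1 bp. The gene ends have no strand in that table, so starts were taken from the RefSeq promoter table (34 members), and a listed start is one of that table. The 43 members and the gene lists were chosen with earlier results of these data known. Values were given in full for the most and least marked member of each family, members without H3K4me3, members with CTCF at an end and members within 100 kb of each other; other members are named where a count or a feature turned on them. The RefSeq promoter windows overlapped by CTCF were to be printed, and there were none. The windows were also searched for a CTCF core motif, and that count is not reported here. The printed windows, and the gaps wider than 100 kb, were chosen after their values were seen.

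Shares have Wilson 95% intervals and medians a binomial interval of order statistics; both cover counting error only. No test was made, because each antibody had 1 list. The counting was tested on simulated peaks and set beside bedtools 2.31.1, which gave the same 11977, 5627 and 8143 genes with H3K4me3, CTCF and RAD21 at an end. Python 3.11.15, numpy 2.4.6, pandas 2.3.3, scipy 1.17.1 and matplotlib 3.10.9 were used. Other windows, flank widths and peak length limits were tried.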

Additional observations from a re-analysis of the deposited data

How the results depend on the processing

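Of 41 alternatives over 10 results, 25 stayed close (a count within 1.5 times the main count, a median or share inside its 95% interval) and 16 moved further. Counting only peaks above each list's median length gave H3K4me3 at an end of 14 members (32.6%, with 44% of all genes) and at an end or in the body of 19 (44.2%, with 49.4%), CTCF at an end of 4 (9.3%, with 17.1%) and RAD21 at an end of 5 (11.6%, with 24%). The median CTCF distance was then 22585 bp (33441 bp for all genes), and RAD21 was on 90.6% of 64 CTCF peaks (93% of all such autosomal peaks). A 500 bp window gave H3K4me3 at an end of 23 (53.5%, with 54.7%), CTCF of 4 (9.3%, with 19.6%) and RAD21 of 9 (20.9%, with 30.9%), and a 2.5 kb window gave 31 (72.1%, with 62.2%), 21 (48.8%, with 42.3%) and 25 (58.1%, with 55%). The members' share thus changed sides of that of all genes for H3K4me3 with the narrow window and with longer peaks, and for CTCF and RAD21 with the wide window. With listed starts only, CTCF was at 3 and RAD21 at 7 of 34 members (8.82 and 20.6%, with 22.1 and 35.1%). The top quintile of H3K4me3 length held a peak of 9 members (20.9%, with 22.9%). CTCF was in both flanks of 7 members with 10 kb flanks (16.3%, with 12.9%) and of 26 with 50 kb flanks (60.5%, with 60.4%). At ends and in bodies only, an alternative chosen after seeing the data, 67.4% of 43 CTCF peaks overlapped RAD21 (79.3% over all genes). With members within 100 kb of each other counted as 1 locus, also chosen after seeing the data, 36 of 39 loci had H3K4me3 at an end or in the body. No paired analysis was possible because each antibody had 1 peak list and no groups were compared. Peak lists hold no height, so a weak peak and a strong one count alike, and many peaks sit at a list's shortest length (7327 CTCF peaks at 37 or 39 bp, 11912 autosomal RAD21 peaks at 71 bp).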
